A study of Mus musculus with 32 samples.

Results

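The genes described here encode the machinery with which a nerve terminal stores, docks, fuses and recovers synaptic vesicles. They were taken from the deposited count table by their symbols, 37 of its 23420 genes, and all 37 were found and were measured in every library. By role, 8 encode the SNARE fusion proteins and their partners, 5 encode synaptotagmins, 13 encode other proteins of the vesicle, 8 encode proteins of the active zone and of vesicle priming, and 3 act in endocytosis. The study measured total RNA from mouse spinal cord after spinal cord injury by paired-end RNA-seq, in 32 libraries of C57BL/6J mice given as 8-12 weeks old. The piece taken was the cord on both sides of the lesion, frozen at once. Sham cords were sampled 3 and 35 days after the operation (3 libraries each). Injured cords were labelled SCI+Ctrl, called the injured control here (3 libraries at 3 days, 3 at 14 days and 4 at 35 days), SCI+Gsx1 (3, 3 and 4 libraries) or SCI+Nkx6.1 (3 libraries at 3 days and 3 at 35 days). Gsx1 and Nkx6.1 are homeodomain transcription factors of the embryonic neural tube. The sources used here do not give how the injury was made, what carried the factors or what the control treatment was. The sham labels name no control treatment, so lesion and control treatment cannot be told apart. The labels do not say that libraries of a group came from separate animals, and p-values therefore describe variation among these libraries.

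Transmitter release starts when a calcium influx meets vesicles that are already docked and primed. Synaptobrevin on the vesicle (Vamp1, Vamp2) zips together with syntaxin and SNAP-25 on the plasma membrane, complexins clamp and assist the complex, synaptotagmins sense the calcium, and NSF with its SNAP adaptors takes the spent complex apart. RIM, Munc13, ELKS, Bassoon and Piccolo form the active zone where this happens, and dynamin, amphiphysin and synaptojanin retrieve the membrane. In spinal cord, Vamp1 and Syt2 are known as the isoforms of fast motor and interneuron terminals, while Vamp2 and Syt1 dominate in forebrain.

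Levels are given in CPM, the count normalised to the library total, with totals scaled by the trimmed mean of M-values (TMM). Library totals ran from 10.8 to 19.5 M counts (M, mega), with a median of 14.6 M, and the lowest count of any member in any library was 52. Of the factors' own genes, Gsx1 had 0 to 10 counts in all 32 libraries, and Nkx6-1 lay at 3.62 to 6.11 CPM in the 3 Nkx6.1 libraries at 3 days against 7.00 to 8.98 CPM in the injured control. The sources used here do not say whether reads of a delivered factor would be counted under these genes, so these counts do not check the labels. Defining markers of spinal cord were present in all libraries. The 15 neuronal reference genes summed to 4519 CPM or more and the 6 oligodendrocyte markers to 18701 CPM or more. Sensory ganglion markers were near the floor, summing to 2.42 to 5.83 CPM over all libraries. Markers of other tissue varied. The 5 Schwann cell markers summed to 216.7 to 422 CPM in sham at 3 days, 4.68 to 25.7 CPM in sham at 35 days and 1202 CPM in injured control replicate 2 at 14 days. At 3 days the 8 skeletal muscle markers summed to 314 CPM in injured control replicate 3 and 566 CPM in Nkx6.1 replicate 2. The part of these tissues in the members' values was not tested. Some libraries stood apart from their groups. Injured control replicate 4 at 35 days had the lowest members of its group. It carried both Xist and the Y-linked Ddx3y, as did sham replicate 1 at 3 days. Nkx6.1 replicates 1 and 2 at 3 days had members summing to 4125 and 4120 CPM against 9009 CPM in replicate 3. In injured control replicate 1 and Gsx1 replicate 3 at 35 days, levels relative to the group fell with exon length over 14063 genes (Spearman rho of -0.387 and -0.414). They were singled out by a rho below -0.3, a threshold chosen after seeing the data. Since these values are relative to the group mean, other libraries at 35 days went the other way. Injured control replicates 2 and 3 were at 0.37 and 0.374, Gsx1 replicate 1 at 0.301 and Nkx6.1 replicate 2 at 0.348. Injured control replicate 4 was at -0.215. The injury comparison is given below with and without single libraries. For the other comparisons only some of these fits are given.

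Promoters of the members had a higher median GC content than all promoters. Of the 37 members, 29 had an entry in RefSeq's promoter table (GRCm38.p6, 250 bases before to 50 after the start). Their median GC content was 62.3%, with a range of 50.7% to 74.3%, against a median of 52.7% over all 27025 promoters. Vamp1, at 51.7%, was among those below that median. The Sp1 box GGGCGG, searched on both strands, was in 22 of the 29 (75.862%) and in 35.907% of all promoters. The cAMP response element TGACGTCA was in 1 (Syn1), its half-site TGACG, which the full element contains, in 8 (27.586%, against 21.021% of all), and the NRF1 core GCATGCGC in 2, Bsn and Syn1 (6.897%, against 2.805% of all). The RE1 element was searched as both half-sites in 1 fixed spacing, without mismatches (15 bases in all), and was in none of the 29. It was in 9 of all 27025 promoters (0.033%), too rare in this search for its absence from 29 to be informative. These are letters in a window and not measured binding sites. The stretches below are printed for 3 members that the results turn on and 2 that hold the rarer motifs. They show at least 1 example of each motif found among the members, with the motif in capitals. Cplx1 (chr5:108550028-108550227, minus strand) was the most abundant member per kb of exon and carries an Sp1 box near the start, Vamp1 (chr6:125215381-125215550, plus strand) was among the members with the largest fall after injury and has an Sp1 box, and Stx1a (chr5:135023282-135023481, plus strand), which differed least between injured and sham cord, has a half-site and an Sp1 box. Syn1 (chrX:20921005-20921118, minus strand) holds the cAMP response element, and Bsn (chr9:108190385-108190583, minus strand) holds the NRF1 core in 2 runs, each formed by overlapping matches on both strands.
Cplx1: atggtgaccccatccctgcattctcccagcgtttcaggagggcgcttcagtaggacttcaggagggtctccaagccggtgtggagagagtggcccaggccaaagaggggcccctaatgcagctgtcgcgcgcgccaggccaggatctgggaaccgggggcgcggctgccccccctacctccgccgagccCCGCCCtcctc
Vamp1: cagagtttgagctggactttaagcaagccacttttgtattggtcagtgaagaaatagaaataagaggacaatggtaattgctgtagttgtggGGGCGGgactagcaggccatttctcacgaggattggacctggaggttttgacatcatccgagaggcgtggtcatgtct
Stx1a: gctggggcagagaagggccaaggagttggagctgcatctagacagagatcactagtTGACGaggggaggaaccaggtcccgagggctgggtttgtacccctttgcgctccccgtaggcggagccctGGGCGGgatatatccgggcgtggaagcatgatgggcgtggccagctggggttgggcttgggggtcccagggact
Syn1: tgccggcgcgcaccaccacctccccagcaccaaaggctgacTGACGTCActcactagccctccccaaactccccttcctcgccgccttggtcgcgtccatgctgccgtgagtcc
Bsn: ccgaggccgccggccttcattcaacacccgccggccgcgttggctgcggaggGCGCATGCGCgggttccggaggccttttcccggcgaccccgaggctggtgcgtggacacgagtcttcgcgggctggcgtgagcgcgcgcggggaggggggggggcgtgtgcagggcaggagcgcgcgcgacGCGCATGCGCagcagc

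Compared per kilobase of exon, the members spanned a wide range. Averaged over all libraries, Cplx1 stood at 446 CPM per kb, Snap25 at 263, Dnm1 at 152, Rab3a at 149, Sncb at 133 and Syp at 129.8. The scaffold genes Erc2 and Rims3 were at the bottom with 3.83 and 2.41 CPM per kb, and Stx1a, at 6.04 CPM per kb, ranked 34 of 37. Among synaptotagmins Syt4 (42.7) was above Syt2 (28.0) and Syt1 (15.9), and among the synaptobrevins Vamp1 (99.6) was above Vamp2 (75.6). The plot of all members by library shows the pattern that the rest of the text follows gene by gene.

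**Figure D1:**
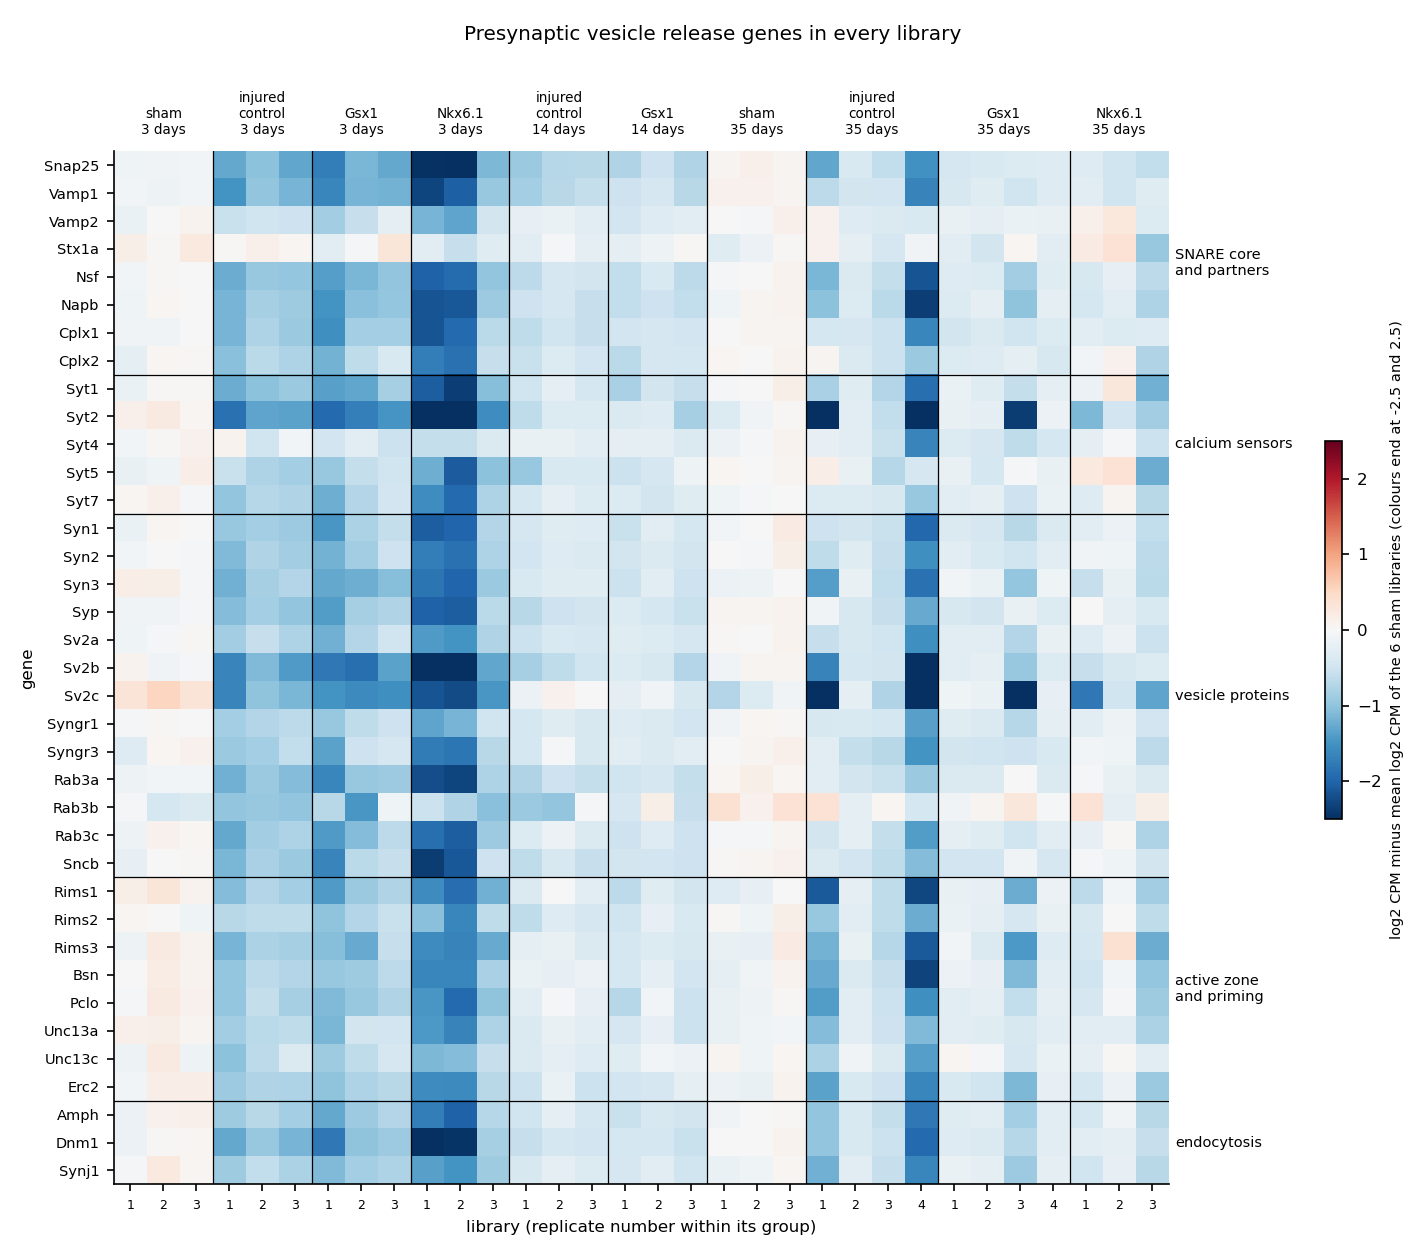
Log2 CPM of each of the 37 members (rows, by role) in each of the 32 libraries (columns, by group) minus the mean of the 6 sham libraries; the colour scale ends at -2.5 and 2.5. Injured libraries at 3 days are low in nearly all rows, with Nkx6.1 replicates 1 and 2 the lowest, Stx1a and Syt4 differ least, and at 35 days injured control replicate 4 stays low.

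Most members were lower in injured than in sham cord at 3 days. In the injured control, 33 of the 37 fell against sham and none rose (edgeR quasi-likelihood test, Benjamini-Hochberg adjusted p under 0.05 over 16314 genes), where 16.0% of all genes tested fell and 19.5% rose. The median log2 fold change of the members was -0.89, with a range of -1.63 to -0.08, against 0.01 for all genes. The injured libraries lay below every sham library for 35 members, as they did for 27.6% of all genes. At 35 days 27 members fell and none rose, against 15.5% of all genes called lower and 21.3% called higher, and the median was -0.75 (0.04 for all genes). All 37 differences were negative, and for 27 members every injured library lay below every sham library (18.0% of all genes). These counts are in bulk tissue, where fewer nerve terminals or neurons and less RNA per cell cannot be told apart. Macrophage and microglia markers summed to 204.5 to 245 CPM in sham cords and 1886 to 3129 CPM in the injured control at 3 days, and to 174.5 to 193 and 1805 to 3883 CPM at 35 days, and none of the 10 was at 0. The part of this shift in the members' fall was not tested beyond the rescaling to neuronal genes given below. Libraries of these groups also differed in sex. At 3 days Xist, expressed from the inactive X of females, was at 503 and 539 CPM in sham replicates 1 and 2 and 778 CPM in injured control replicate 1. At 35 days it was at 520 CPM in sham replicate 3 and at 407 and 676 CPM in injured control replicates 1 and 4. A fit with an Xist term is given below.

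The counts depended on single libraries. At 3 days 10 members were called lower without injured control replicate 1, 19 without sham replicate 2 and 20 without injured control replicate 3. At 35 days 5 were called without sham replicate 3, 8 without injured control replicate 4 and 17 without injured control replicate 1, and 5 without the 2 libraries that carry both Xist and Ddx3y. None was called higher in these fits, and the members' median log2 fold change stayed between -0.95 and -0.79 at 3 days and between -0.92 and -0.55 at 35 days when any 1 library was left out. In a fit of the 2 compared groups alone, 2 members were called at 35 days. Stx1a at 35 days, which was not called, went from -0.01 to 0.02, 0.05 or 0.07 without injured control replicate 2, injured control replicate 3 or sham replicate 3.

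**Figure D2:**
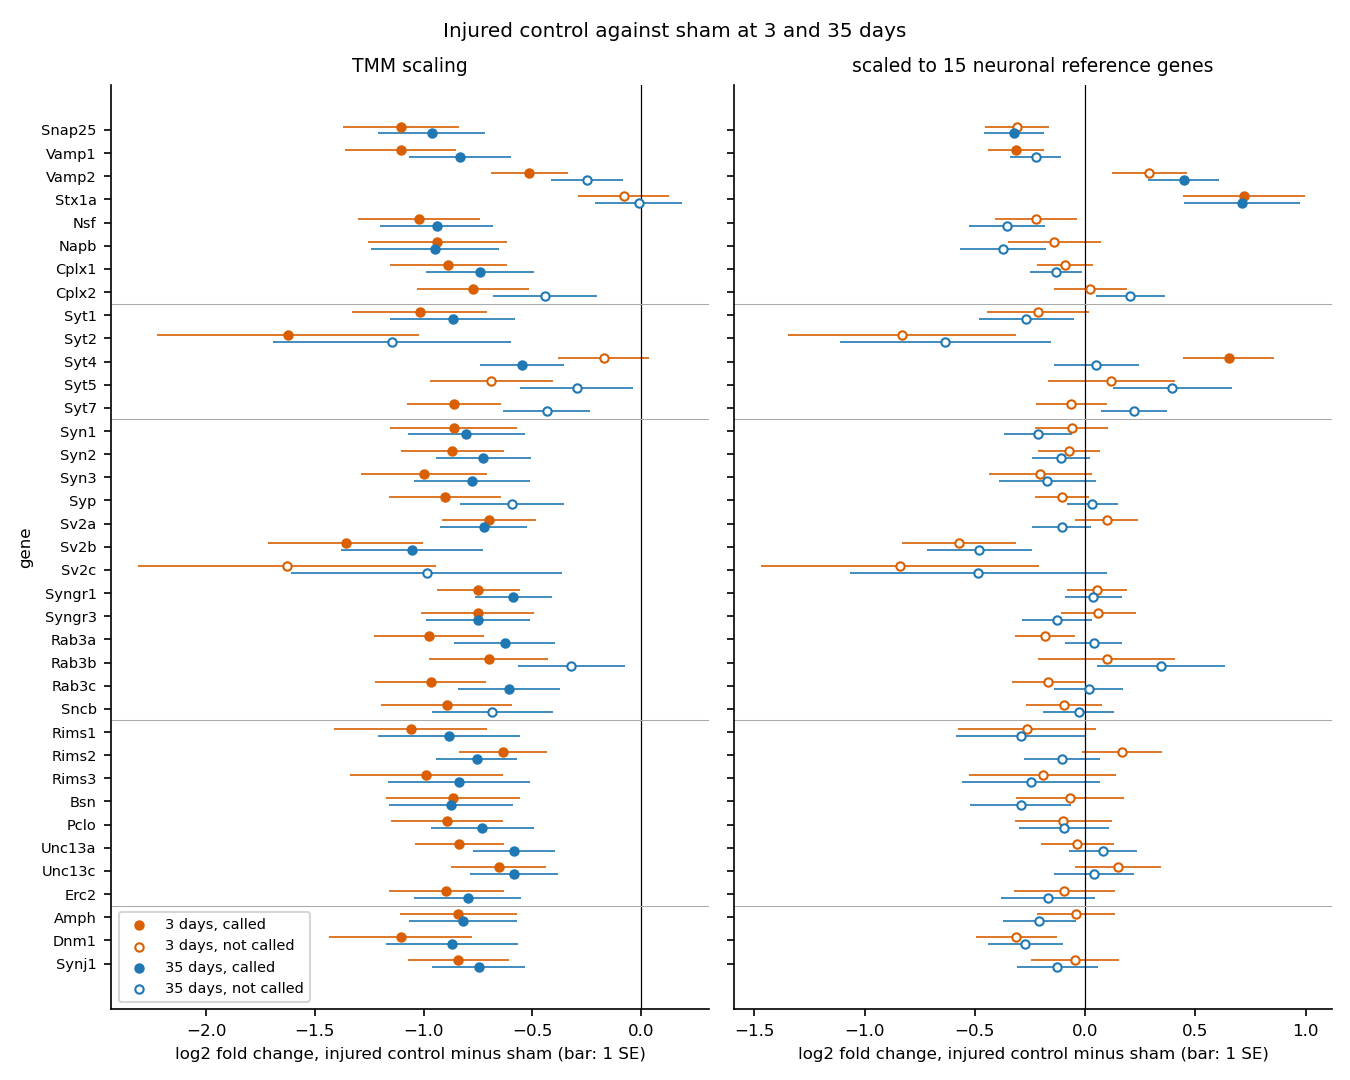
Log2 fold change of each member, injured control against sham, with 1 standard error, at 3 and 35 days, with TMM scaling on the left and scaling to 15 neuronal reference genes on the right; filled points passed adjusted p under 0.05. On the left 33 (3 days) and 27 (35 days) points are filled and all lie below 0, and on the right the members scatter around 0, with 3 filled at each time.

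Among the SNARE proteins and their partners, 7 of 8 fell at 3 days and 5 at 35 days (median log2 fold changes of -0.91 and -0.79). Cplx1 (GRCm38 chr5:108518554-108550024), the most abundant member per length, encodes complexin 1, which binds the assembled SNARE complex. Its level was 1318, 1331 and 1407 CPM in sham cords and 629.6, 823 and 740.4 CPM in the injured control at 3 days, and 1422, 1481 and 1479 against 1034, 1045, 966 and 454 CPM at 35 days. The groups did not overlap at either time, and replicate 4 of the injured control at 35 days was far below the others. The fall was 1.85-fold at 3 days (log2 -0.89, SE 0.27, adjusted p = 0.0125) and 1.67-fold at 35 days (-0.74, SE 0.25, adjusted p = 0.0223). The calls were lost without injured control replicate 1 at 3 days (-0.78, adjusted p = 0.0786) and without any sham library or injured control replicate 4 at 35 days (-0.76 to -0.52, adjusted p from 0.0532 to 0.0942).

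Snap25 (chr2:136713453-136782428), the plasma membrane SNARE anchored by palmitoylation, showed the largest called fall of this role at 35 days. It was at 2609, 2643 and 2660.4 CPM in sham and 1161, 1379.6 and 1141 CPM in injured cords at 3 days, and at 2919, 3071 and 2943 against 1145, 2154, 1822 and 985 CPM at 35 days. Sham libraries were within a narrow band, and every injured library was below it. The falls were 2.15-fold (log2 -1.10, SE 0.27, adjusted p = 0.00253) and 1.95-fold (-0.96, SE 0.24, adjusted p = 0.00396).

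The 2 synaptobrevins are the vesicle SNAREs. Vamp1 (chr6:125215551-125245964) was at 1448, 1392 and 1460.4 CPM in sham and 543, 773 and 683 CPM in injured cords at 3 days, and at 1647, 1644 and 1593 against 969, 1112, 1094 and 478 CPM at 35 days, with no overlap. It fell 2.15-fold (log2 -1.11, SE 0.25, adjusted p = 0.00173) and 1.78-fold (-0.83, SE 0.23, adjusted p = 0.00793). Vamp2 was at 308, 347 and 369.5 against 234, 243 and 240.0 CPM at 3 days, and at 344, 334 and 376 against 372, 276, 269 and 265 CPM at 35 days. Vamp2 fell at 3 days (-0.51, SE 0.18, adjusted p = 0.0246) and overlapped sham at 35 days, where injured replicate 1 lay within the sham range (-0.25, SE 0.16, adjusted p = 0.236). Its 3 day call was lost without injured control replicate 1 or 3 or sham replicate 2 or 3 (-0.50 to -0.45).

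NSF, the ATPase that separates used SNARE complexes, and its brain adaptor Napb fell together. Nsf was at 1009.9, 1082 and 1058 against 452, 554 and 546 CPM at 3 days and at 1034, 1069.8 and 1129.5 against 479, 824, 705 and 238 CPM at 35 days (log2 -1.02, SE 0.28, adjusted p = 0.0066, and -0.94, SE 0.26, adjusted p = 0.00692). Napb was at 452, 504 and 490.3 against 217, 275 and 264 CPM, and at 451, 509.6 and 519.6 against 238, 384, 305 and 95.5 CPM (-0.94, SE 0.32, adjusted p = 0.0234, and -0.95, SE 0.29, adjusted p = 0.0143). Neither gene's groups overlapped. The Napb call was lost at 3 days without injured control replicate 1 (-0.83, adjusted p = 0.112) or 3 or sham replicate 2 or 3, and at 35 days without sham replicate 3 (-0.90, adjusted p = 0.0566). Cplx2, the second complexin, fell at 3 days (-0.77, SE 0.26, adjusted p = 0.0213) and missed the threshold at 35 days (-0.44, SE 0.24, adjusted p = 0.146).

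Stx1a (chr5:135023482-135051100), the plasma membrane syntaxin, was the only member of this role not called at 3 days. It had 19.1, 17.5 and 20.4 CPM in sham and 17.5, 18.8 and 17.7 CPM in injured cords at 3 days, and 13.9, 15.4 and 17.5 against 18.5, 14.4, 12.9 and 16.1 CPM at 35 days. The groups overlapped at both times. The log2 fold changes were -0.08 (SE 0.21, adjusted p = 0.801) and -0.01 (SE 0.20, adjusted p = 0.969), and the 95% interval at 35 days ran from -0.40 to 0.38.

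**Figure D3:**
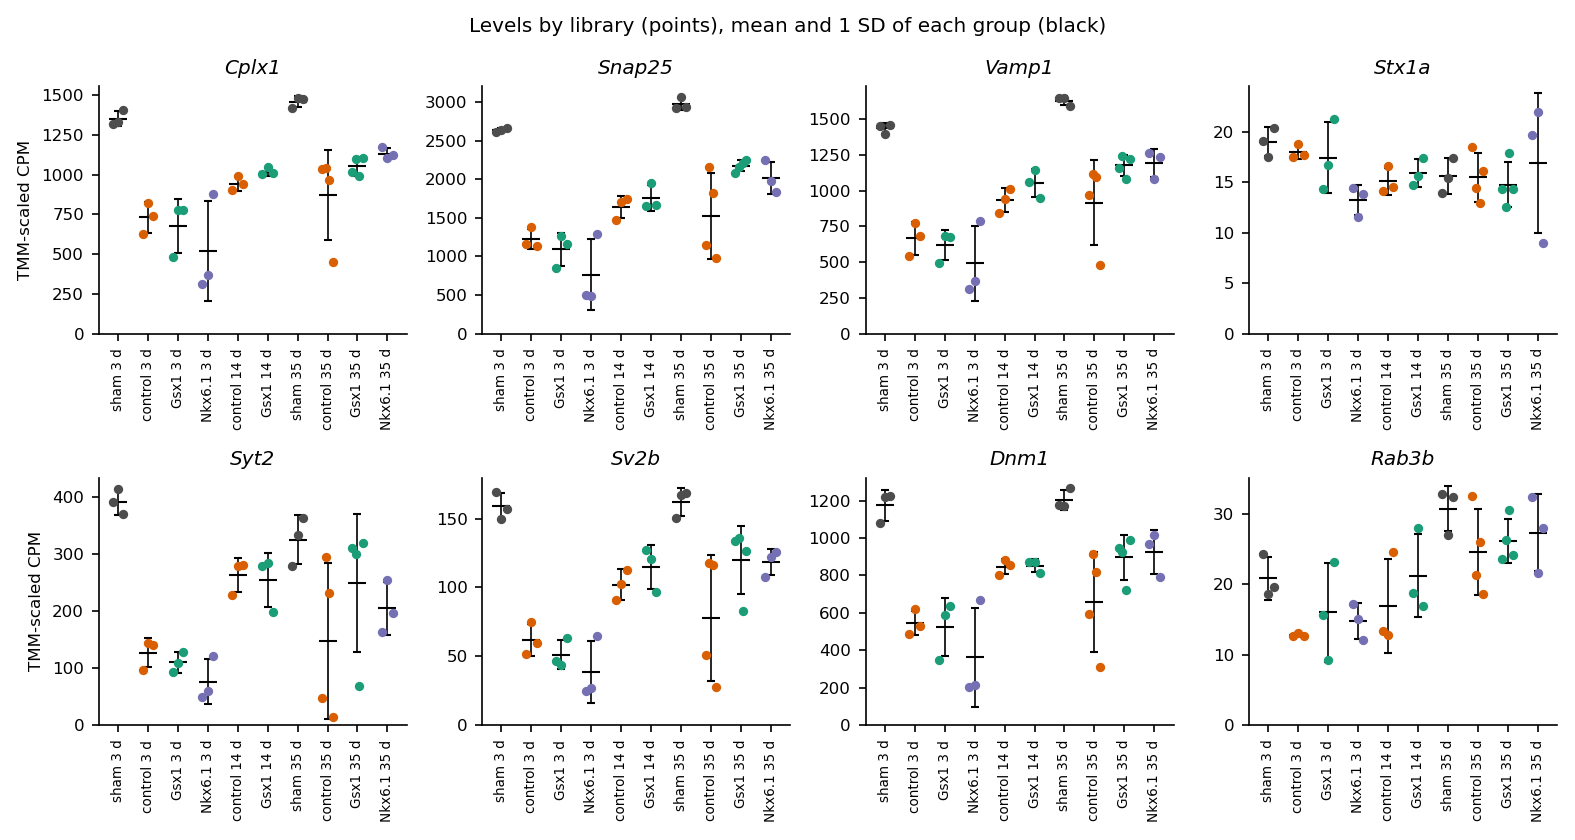
TMM-scaled CPM of Cplx1, Snap25, Vamp1, Stx1a, Syt2, Sv2b, Dnm1 and Rab3b in each library of the 10 groups (points), with the mean and 1 SD. At 3 days every injured control library lies below every sham library in each panel but that of Stx1a, which stays between 8.97 and 22.0 CPM in all groups.

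Of the 5 synaptotagmins, 3 fell at 3 days and 2 at 35 days (medians -0.86 and -0.55). Syt4, the most abundant of them per length, lacks a calcium-coordinating residue of its relatives and is found on dense-core vesicles. It was at 194, 207 and 219 CPM in sham and 215, 143 and 192 CPM in injured cords at 3 days, and at 183, 199 and 217 against 175, 168, 138 and 64.9 CPM at 35 days. The groups overlapped at 3 days (log2 -0.17, SE 0.21, adjusted p = 0.552) and not at 35 days, where it fell 1.46-fold (-0.55, SE 0.19, adjusted p = 0.0295). Without injured control replicate 4 that value was -0.31 (adjusted p = 0.083), and the call was also lost without any 1 sham library (-0.60 to -0.48). Syt4 shares 14.54% of its exon length with the antisense gene Gm26658.

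Syt2 (chr1:134646677-134762593), the fast calcium sensor, had the largest called fall of any member at 3 days. It was at 391, 414 and 369 CPM in sham and 97.4, 143 and 140.2 CPM in injured cords, a 3.08-fold fall (log2 -1.62, SE 0.60, adjusted p = 0.0372), and the groups were far apart. At 35 days it was at 279.5, 333 and 363 CPM in sham against 47.8, 294, 231 and 15.0 CPM, so injured replicate 2 was within the sham range, replicate 3 below it and replicates 1 and 4 far below (-1.14, SE 0.55, adjusted p = 0.1003). Leaving out any 1 library at 3 days lost the call (adjusted p from 0.0632 to 0.139), while the log2 fold change stayed between -1.72 and -1.45. Without injured control replicate 2 the 35 day value was called (-1.73, adjusted p = 0.0161).

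Syt1 was at 173, 197 and 197 against 82.2, 95.5 and 102 CPM at 3 days and at 187, 196 and 213 against 110.4, 157, 116 and 52.0 CPM at 35 days, with falls of -1.02 (SE 0.31, adjusted p = 0.0132) and -0.87 (SE 0.29, adjusted p = 0.0208). Syt1 encodes the sensor of fast release in forebrain, and its groups did not overlap. Syt7, a slower sensor, fell at 3 days (-0.86, SE 0.22, adjusted p = 0.00347), from 218, 229.8 and 207 to 107, 129 and 125 CPM, and missed the threshold at 35 days (-0.43, SE 0.20, adjusted p = 0.0877). Syt5, the least abundant sensor per length, did not pass at 3 days (-0.69, SE 0.28, adjusted p = 0.0576) or at 35 days (-0.30, SE 0.26, adjusted p = 0.384).

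Of the 13 vesicle proteins, 12 fell at 3 days and 9 at 35 days (medians -0.89 and -0.72). Rab3a, the small GTPase that tethers vesicles to RIM, was at 428, 449 and 451 CPM in sham and 204, 248 and 223 CPM in injured cords at 3 days, and at 489, 521 and 488 against 384, 341, 321 and 246 CPM at 35 days. The groups did not overlap (log2 -0.98, SE 0.25, adjusted p = 0.00432, and -0.63, SE 0.23, adjusted p = 0.0360). Its 35 day call was lost without any 1 sham library or injured control replicate 3 or 4 (-0.65 to -0.52, adjusted p from 0.0546 to 0.128).

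Of the SV2 glycoproteins of the vesicle membrane, Sv2a and Sv2b fell at both times and Sv2c passed the test at neither. Sv2a was at 546, 577 and 599.6 against 320.3, 395 and 346 CPM at 3 days and at 602, 585 and 623 against 394, 447, 418 and 202 CPM at 35 days (-0.70, SE 0.22, adjusted p = 0.0138, and -0.72, SE 0.20, adjusted p = 0.00711). Sv2b was at 169.6, 149.9 and 157 against 51.3, 74.6 and 59.9 CPM, and at 150.1, 167 and 169 against 50.6, 118, 116 and 27.5 CPM. Every injured library was below sham, with falls of 2.56-fold (-1.36, SE 0.36, adjusted p = 0.00478) and 2.08-fold (-1.05, SE 0.33, adjusted p = 0.0143). The 35 day call of Sv2b was lost without injured control replicate 4 (-0.77, adjusted p = 0.0505), replicate 1 (-0.88, adjusted p = 0.053) or sham replicate 3 (-1.02, adjusted p = 0.0524). Sv2c was at 215, 251 and 217 against 55.3, 86.6 and 78.8 CPM at 3 days, the most negative value of all members, and did not pass the test (-1.63, SE 0.68, adjusted p = 0.0644). At 35 days its injured libraries ranged from 3.87 to 146 CPM around a sham range of 104 to 162 CPM (-0.99, SE 0.62, adjusted p = 0.217).

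Syn1, whose promoter holds the cAMP response element shown above, was at 365, 424 and 407 CPM in sham and 212, 227 and 218 CPM in injured cords at 3 days, and at 387, 403 and 471 against 285, 298, 276 and 104 CPM at 35 days. The groups did not overlap, and injured replicate 4 was far below the rest. The synapsins, which hold vesicles in reserve clusters, all fell at both times: Syn1 by -0.86 (SE 0.29, adjusted p = 0.0232) and -0.80 (SE 0.27, adjusted p = 0.0221), Syn2 by -0.87 and -0.73, and Syn3 by -1.0 (SE 0.29, adjusted p = 0.0093) and -0.78 (SE 0.27, adjusted p = 0.0253) on the log2 scale. Syn3 shares 14.11% of its exon length with Timp3, which lies within it on the other strand. Its calls were lost without injured control replicate 1 at 3 days (-0.86, adjusted p = 0.0687), and at 35 days without any sham library or injured control replicate 1 or 4 (-0.55, adjusted p = 0.107, without the last). Synaptophysin (Syp), the classic vesicle marker, fell at 3 days (-0.90, adjusted p = 0.0085) and narrowly missed the threshold at 35 days (-0.59, adjusted p = 0.0513), and 16.79% of its exon length is shared with the antisense gene Gm14703. Its relatives Syngr1 (-0.75 and -0.59) and Syngr3 (-0.75 and -0.75) fell at both times, as did Rab3c (-0.97 and -0.61). Beta-synuclein (Sncb) fell at 3 days (-0.89) and missed the threshold at 35 days (-0.68, adjusted p = 0.0539).

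All 8 active zone and priming genes fell at both times (medians -0.88 and -0.78). Unc13c, a Munc13 priming factor and the most abundant of the role per length, was at 223, 286 and 224 CPM in sham and 119.7, 155 and 190.3 CPM in injured cords at 3 days. At 35 days it was at 255, 226 and 253 against 139.7, 229, 189.9 and 94.3 CPM, where injured replicate 2 lay within the sham range. The falls were 1.58-fold (log2 -0.66, SE 0.22, adjusted p = 0.0208) and -0.58 (SE 0.20, adjusted p = 0.0255). Unc13a, the main priming factor of fast synapses, was at 196, 200.4 and 191 against 99.0, 113 and 117 CPM at 3 days and at 159, 168 and 173 against 85.4, 148, 127 and 84.6 CPM at 35 days, without overlap (-0.84, SE 0.20, adjusted p = 0.0028, and -0.59, SE 0.19, adjusted p = 0.018). The RIM genes, which link vesicles to calcium channels, fell by -1.06 and -0.88 (Rims1), -0.64 and -0.76 (Rims2) and -0.99 and -0.84 (Rims3), and the large scaffolds by -0.87 and -0.87 (Bsn, adjusted p = 0.0304 and 0.0193), -0.89 and -0.73 (Pclo) and -0.90 and -0.80 (Erc2). Bsn, the member with the NRF1 core in its promoter beside Syn1, was at 188, 215 and 202 against 97.3, 121 and 114 CPM at 3 days and at 159.8, 178 and 203 against 79.2, 148, 127 and 38.2 CPM at 35 days, with no overlap. The Unc13c calls were lost at 3 days without injured control replicate 1 (-0.49, adjusted p = 0.157) or sham replicate 2, and at 35 days without injured control replicate 1 or 4 (-0.39, adjusted p = 0.111, without the last) or sham replicate 1 or 3. That of Unc13a at 35 days was lost without injured control replicate 1 or 4 or sham replicate 3 (-0.56 to -0.47).

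The 3 endocytosis genes fell at both times (medians -0.84 and -0.82). Dnm1 (chr2:32308471-32353338), the neuronal dynamin that pinches vesicles off the membrane, was at 1080.4, 1219 and 1225 CPM in sham and 489.5, 618 and 529 CPM in injured cords at 3 days, and at 1175, 1173 and 1265 against 596, 914, 816 and 309 CPM at 35 days. The groups were apart, with falls of 2.15-fold (log2 -1.11, SE 0.33, adjusted p = 0.0109) and 1.83-fold (-0.87, SE 0.30, adjusted p = 0.0265). Its call was lost without injured control replicate 1 at 3 days (-1.02, adjusted p = 0.0617) and, at 35 days, without injured control replicate 1 or 4 or any sham library (-0.89 to -0.63, adjusted p from 0.0548 to 0.107). Amphiphysin (Amph), which recruits dynamin, fell by -0.84 and -0.82, and synaptojanin 1 (Synj1), the lipid phosphatase that uncoats the vesicle, by -0.84 and -0.75.

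Between times, 1 member was called. From 3 to 35 days in the injured control, Rab3b, an isoform of the Rab3 family of vesicle GTPases, was the only member called, among the 5.04% of all genes that rose. It was at 12.7, 13.0 and 12.7 CPM at 3 days, 13.3, 12.7 and 24.6 CPM at 14 days and 32.5, 21.3, 26.0 and 18.7 CPM at 35 days, so the 3 and 35 day libraries did not overlap (log2 0.94, SE 0.26, adjusted p = 0.0191). The call was lost without any 1 of the 3 day libraries and without 35 day replicate 1 (0.75, adjusted p = 0.0794). Scaled to neuronal reference genes, Rab3b was not called (0.65, SE 0.29, adjusted p = 0.200) and Syt4 was called lower (-0.80, SE 0.19, adjusted p = 0.0158), where 0.49% of all genes were higher and 3.25% lower. Of the 15 reference genes themselves, 1 was higher and 1 lower. In sham cords Rab3b was at 24.3, 18.6 and 19.6 CPM at 3 days and 32.8, 27.1 and 32.3 CPM at 35 days, which did not pass the test (0.56, SE 0.27, adjusted p = 0.693). No member was called for time in sham (edgeR, and DESeq2 also 0), where 1 had an unadjusted p under 0.05 and 0.00613% of all genes were called. Rab3b fell with injury at 3 days (-0.70, SE 0.27, adjusted p = 0.0459), a call lost without any 1 of the 6 libraries. At 35 days it was not called (-0.32, SE 0.25, adjusted p = 0.316), and 9.0% of its exon length is shared with the antisense gene 8030443G20Rik. The difference between the injury effects at both times was called for no member (edgeR and DESeq2; 0 with an unadjusted p under 0.05; 0.362% of all genes called), with a median difference of 0.16.

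At 14 days the injured control had no sham of its own, so its levels stand without a test against sham. Snap25 was at 1475, 1708 and 1740.5 CPM, Vamp1 at 844, 941 and 1014 CPM, Cplx1 at 901, 991 and 942 CPM, and Syt2 at 229, 279 and 281 CPM. The members together summed to 10598 to 11962 CPM, against 7379.6 to 8988 CPM in the injured control at 3 days.

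Gsx1 cords were compared with the injured control of the same day, the comparison the series title points to. No member was called at 3, 14 or 35 days by edgeR or by DESeq2. Of the 16314 genes tested, edgeR called none (0.0% at each time). At 3 days the median of the members was -0.05 and 26 of 37 were negative, and at 14 days it was -0.03 with 22 negative; none had an unadjusted p under 0.05 at either time. At 35 days 36 of 37 were positive (Stx1a was at -0.07), with a median of 0.37 against -0.03 for all genes, and 9 had an unadjusted p under 0.05. The smallest adjusted p was 0.201, for Rims2 (0.49, SE 0.17), which was at 75.9, 73.1, 63.9 and 74.8 CPM in Gsx1 cords and 44.1, 70.3, 54.7 and 35.8 CPM in the injured control. The ranges overlapped. Of the 8 active zone genes, 6 had an unadjusted p under 0.05, with a median of 0.46.

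The injured control libraries at 35 days were spread more widely than the Gsx1 libraries for Snap25 and Cplx1. Snap25 was at 2084, 2162, 2209.6 and 2249.6 CPM in Gsx1 cords, and Cplx1 at 1017, 1099, 989 and 1104 CPM, close to the higher libraries of the injured control and above its replicate 4. Without injured control replicate 2 at 35 days, 9 members were called higher in Gsx1 cords, and with the within-group relation to exon length as a covariate 1 was. Macrophage and microglia markers moved beside the members: they summed to 1266 to 1481 CPM in Gsx1 and 1805 to 3883 CPM in the injured control, with a median log2 fold change of -0.97 over the 10 (0 called, 8 with an unadjusted p under 0.05). Fibroblast markers, of which all 5 rose with injury at both times (medians 2.55 and 4.02), were lower in value in Gsx1 cords at each time, with 5 of 5 negative and 0 called. Their medians were -1.48 at 3 days (3 with an unadjusted p under 0.05), -2.07 at 14 days (5) and -1.48 at 35 days (4). At 14 days they summed to 431.8 to 878 CPM in Gsx1 and 2624 to 3249 CPM in the injured control, and at 35 days to 169.6 to 490.0 and 194.9 to 2160 CPM. Their part in the members' values was not tested. The sex of the tissue also differed: Xist, expressed from the inactive X of females, was at 407 and 676 CPM in injured control replicates 1 and 4 at 35 days and at 0.36 to 3.70 CPM in the 4 Gsx1 libraries. These replicates were the 2 lowest control libraries of Snap25, and replicate 4 was the lowest of Cplx1. With an Xist term in the fit 0 members were called for Gsx1 at 35 days (median 0.30), and 25 for the injured control against sham. Neuronal reference genes had a median of 0.27. With scaling to these reference genes the median of the members was 0.14 and none was called (0.0% of all genes).

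Nkx6.1 cords share the injured control with Gsx1 and are given beside it. Sex differed here as well: at 3 days Xist was at 0.15 to 1.35 CPM in Nkx6.1 libraries and at 778 CPM in injured control replicate 1. At 3 days no member was called (edgeR and DESeq2 both 0; 0.337% of all genes called), 36 of 37 values were negative (Rab3b was at 0.21), the median was -0.52 and 11 had an unadjusted p under 0.05. The smallest adjusted p was 0.181, for Snap25 (-0.69, SE 0.26), at 506, 491 and 1292 CPM in Nkx6.1 cords against 1161, 1379.6 and 1141 CPM. Replicates 1 and 2 were far below the control and replicate 3 was within it. Cplx1 (313, 366 and 882 CPM) and Dnm1 (205, 216 and 669.5 CPM) were likewise far below the control in replicates 1 and 2, and their replicate 3 was above every control library. Without Nkx6.1 replicate 3, 24 members were called lower. All Nkx6.1 libraries were below all control libraries for 6 members, Stx1a, Syt5, Rims1, Rims3, Pclo and Synj1, where 8.59% of all genes were. Stx1a, not called in the control against sham, was at 14.4, 11.6 and 13.8 CPM here. Macrophage markers summed to 3748 to 6692 CPM against 1886 to 3129 CPM (median 1.04, 0 of 10 called, 9 with an unadjusted p under 0.05), and neuronal reference genes had a median of -0.38.

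At 35 days the Nkx6.1 values were positive for all 37 members, with a median of 0.40 and none called (edgeR and DESeq2 both 0; 0.0% of all genes), and 3 had an unadjusted p under 0.05. The smallest adjusted p was 0.39, for Rims2 (0.41, SE 0.19). Cplx1, at 1173, 1104 and 1121 CPM, was the single member above every control library (2.03% of all genes were). Macrophage and microglia markers summed to 735.5 to 2218 CPM in Nkx6.1 and 1805 to 3883 CPM in the injured control, with a median log2 fold change of -0.83 (0 of 10 called, 7 with an unadjusted p under 0.05). Fibroblast markers summed to 167.9 to 1009 against 194.9 to 2160 CPM, with a median of -0.99 and 5 of 5 negative (0 called, 1 with an unadjusted p under 0.05). The part of the fibroblast markers was not tested. Xist was at 666 CPM in Nkx6.1 replicate 2, and at 407 and 676 CPM in injured control replicates 1 and 4. With scaling to neuronal reference genes the median was 0.08 and none was called (0.0% of all genes).

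**Figure D4:**
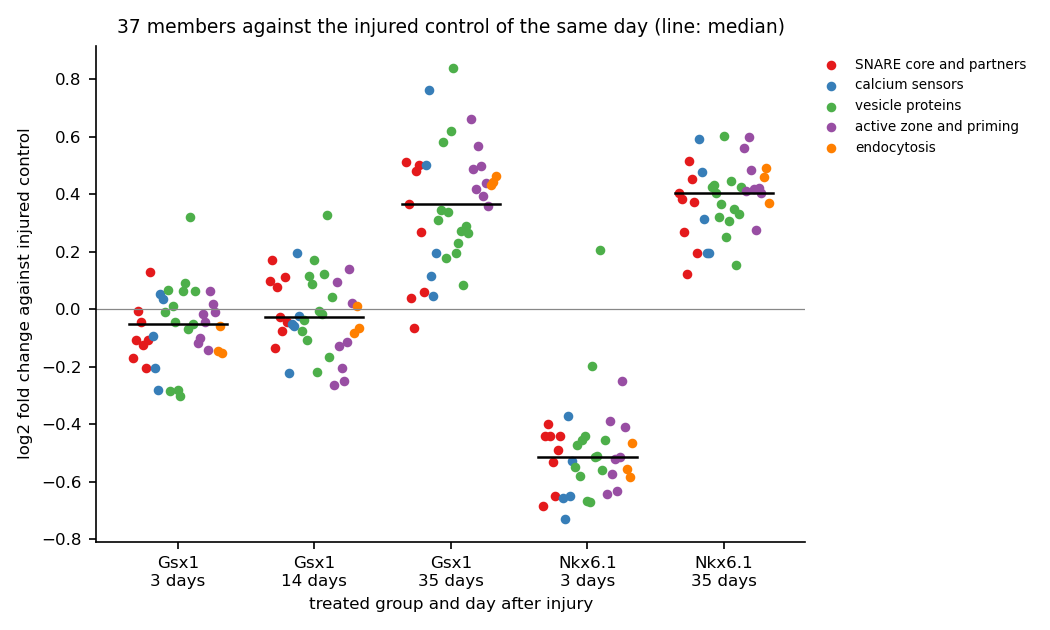
Log2 fold change of the 37 members against the injured control of the same day (points, by role) for Gsx1 at 3, 14 and 35 days and Nkx6.1 at 3 and 35 days; the line is the median. Medians are -0.05, -0.03 and 0.37 for Gsx1 and -0.52 and 0.40 for Nkx6.1, and no point passed adjusted p under 0.05.

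The difference between the Nkx6.1 effects at 35 and 3 days was tested directly. Its median over the members was 0.88 with 36 positive, 31 had an unadjusted p under 0.05, and none was called by edgeR (2.3% of all genes were), while DESeq2 called 3. Macrophage and microglia markers moved the other way in the same comparison: all 10 values were negative, with a median of -1.86, and 7 were called lower. Scaled to the neuronal reference genes, the members' median was 0.21 and none was called (54.7% of all genes were), 3 with an unadjusted p under 0.05. The part of the markers in the members' difference was not tested beyond this rescaling. The smallest adjusted p was 0.0821, for Snap25 (1.09, SE 0.36). The count was 29 without Nkx6.1 replicate 3 at 3 days, 18 without injured control replicate 2 at 35 days, 11 without Nkx6.1 replicate 3 at 35 days and 19 with the exon length covariate. For Gsx1 the same difference had a median of 0.40, and none was called by either tool (0.0% of all genes; 2 with an unadjusted p under 0.05).

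Against sham, both treated groups were low at 3 days and less so at 35 days. These comparisons share the sham libraries with the injury comparison. Sex was again uneven at 3 days. Xist was at 503 and 539 CPM in sham replicates 1 and 2, and at 17.3 CPM or less in the Gsx1 and Nkx6.1 libraries. At 3 days 33 members fell in Gsx1 cords (17.4% of all genes; median -0.91), and 35 lay wholly below sham (26.7% of all genes). Snap25 was at 846, 1269 and 1159 CPM (-1.27, SE 0.27, adjusted p = 0.000636), Vamp1 at 496, 683 and 677 CPM (-1.21, SE 0.26, adjusted p = 0.000657), Sv2b at 46.4, 43.5 and 63.1 CPM (-1.64, SE 0.36, adjusted p = 0.000953) and Syn3 at 43.2, 44.8 and 50 CPM (-1.28, SE 0.29, adjusted p = 0.00133). The members not called were Stx1a, Syt4, Syt5 and Rab3b. Without Gsx1 replicate 1 at 3 days the count was 17. Scaled to the 15 neuronal reference genes described below, the split was 1 higher and 3 lower (68.6% and 0.417% of all genes), with a median of -0.04: Stx1a was higher, and Snap25, Vamp1 and Sv2b were lower. Of the 15 reference genes themselves, 4 were higher and 2 lower.

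In Nkx6.1 cords 36 members fell at 3 days (26.4% of all genes; median -1.39), all but Rab3b (-0.50, adjusted p = 0.123), and all 37 lay wholly below sham (29.8% of all genes). Snap25 fell 3.46-fold (-1.79, SE 0.27, adjusted p = 6.532e-06), Unc13a, at 66.4, 57.1 and 106 CPM, by -1.35 (SE 0.21, adjusted p = 7.401e-06), Syt7, at 71.8, 54.8 and 123 CPM, by -1.39 (SE 0.22, adjusted p = 1.048e-05) and Vamp1, at 312, 370.3 and 789 CPM, by -1.55 (SE 0.26, adjusted p = 2.133e-05). Replicate 3 was the highest library in each, still below sham. With the reference scaling the split was 3 higher and 7 lower (79.0% and 1.48% of all genes), with a median of -0.23. The 3 were Stx1a, Syt4 and Rab3b, and the 7 were Snap25, Vamp1, Syt1, Syt2, Sv2b, Rab3a and Dnm1. Of the 15 reference genes themselves, 4 were higher and 4 lower.

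At 35 days no member was called against sham in either treated group by edgeR or by DESeq2, where 9.8% of all genes were called in Gsx1 and 7.2% in Nkx6.1 cords. All 37 values were negative in Gsx1 (median -0.38, 3 with an unadjusted p under 0.05), and 35 in Nkx6.1 (median -0.31, 1 with an unadjusted p under 0.05, Snap25 at -0.56). Every treated library was below every sham library for 28 members in Gsx1 (15.9% of all genes) and 19 in Nkx6.1 (17.1%). In a fit of the 2 compared groups alone, 17 members were called in Gsx1, 6 in Nkx6.1 and 2 in the injured control. In the model of all 10 groups, 27 members passed against sham in the control and none in the treated groups. That contrast is not a test of their difference. The direct comparisons with the control, given above, called none.

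Scaling to the 15 neuronal reference genes (Rbfox3, Map2, Tubb3 and others) sets the members against other neuronal genes. It moved the median of all genes to 0.81 at 3 days and 0.76 at 35 days and turned the split of members called, from 0 higher and 33 lower to 2 higher and 1 lower at 3 days, and from 0 and 27 to 2 and 1 at 35 days. Of all genes, 63.9% and 62.2% were then called higher and 0.337% and 0.184% lower. The median of the members was -0.09 and -0.13. Of the 15 reference genes themselves, 1 was called higher and 0 lower at 3 days, and 3 higher and 0 lower at 35 days. Reference genes thus scattered around their own mean too, and a call does not by itself set a member apart from them. Relative to the reference, Stx1a rose (0.72, SE 0.28, adjusted p = 0.0252, and 0.71, SE 0.26, adjusted p = 0.0217), Syt4 rose at 3 days (0.65, SE 0.21, adjusted p = 0.00933) and Vamp2 at 35 days (0.45, SE 0.16, adjusted p = 0.0190). Vamp1 fell further than the reference at 3 days (-0.31, SE 0.13, adjusted p = 0.0310) and Snap25 at 35 days (-0.32, SE 0.14, adjusted p = 0.0398). Single libraries decided these calls. That of Syt4 was lost without injured control replicate 1 (0.48, adjusted p = 0.0689), and those of Stx1a and Vamp2 at 35 days were lost without sham replicate 1, sham replicate 2 or injured control replicate 4 (0.45 for Stx1a and 0.28 for Vamp2 without the last). Stx1a at 3 days kept its call without injured control replicate 2 and lost it without each of the other 5 libraries (0.67 to 0.75), Vamp1 lost it without any sham library or injured control replicate 1 (-0.22), and Snap25 without any sham library or injured control replicates 1 (-0.17) or 4 (-0.32). The values above 0 are below the median of all genes under this scaling.

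Ratios between paralogues within a library do not depend on scaling. Of 10 ratios, 4 were apart between injured and sham cords at 3 days, and 1 at 35 days as well. The log2 ratio of Vamp1 to Vamp2 (CPM per kb, 0.5 CPM added) was 0.81, 0.59 and 0.56 in sham and -0.21, 0.25 and 0.09 in injured cords at 3 days, and 0.84, 0.88 and 0.67 against -0.04, 0.59, 0.61 and -0.57 at 35 days. Means went from 0.66 (SD 0.14, n = 3) to 0.04 (SD 0.23, n = 3), with an exact two-sided permutation p = 0.1, and from 0.80 (SD 0.11, n = 3) to 0.15 (SD 0.56, n = 4), exact permutation p = 0.0571. These are the smallest p that 3 against 3 and 3 against 4 libraries allow, and over the 10 ratios the Benjamini-Hochberg values were 0.25 and 0.571 (exact permutation tests).

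The other 3 ratios were apart at 3 days. Syt2 to Syt1 fell from a mean log2 ratio of 1.18 to 0.56, Sv2c to Sv2a from -2.40 to -3.34 and Sv2b to Sv2a from -2.71 to -3.37 (exact permutation p = 0.1 each, n = 3 and 3, adjusted 0.25). At 35 days they overlapped (exact permutation p = 0.571, 0.514 and 0.343), and 3 libraries were far out: Syt2 to Syt1 was -1.07 and -1.63 in injured control replicates 1 and 4 and -0.77 in Gsx1 replicate 3, and Sv2c to Sv2a was -5.45, -6.60 and -5.25. Injured control replicate 1 and Gsx1 replicate 3 are the libraries whose levels fell most with exon length. Injured control replicate 4 had a Spearman rho of -0.215. Sv2c (9700 bases of exon) is longer than Sv2a (4636 bases), while Syt2 (7638 bases) is shorter than Syt1 (8338 bases). Vamp1 (10167 bases) is also longer than Vamp2 (3809 bases). At 35 days the Vamp1 to Vamp2 ratio was likewise lowest in injured control replicates 1 (-0.04) and 4 (-0.57). The part of exon length in these ratios was not tested. The other 6 ratios overlapped at both times.

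**Figure D5:**
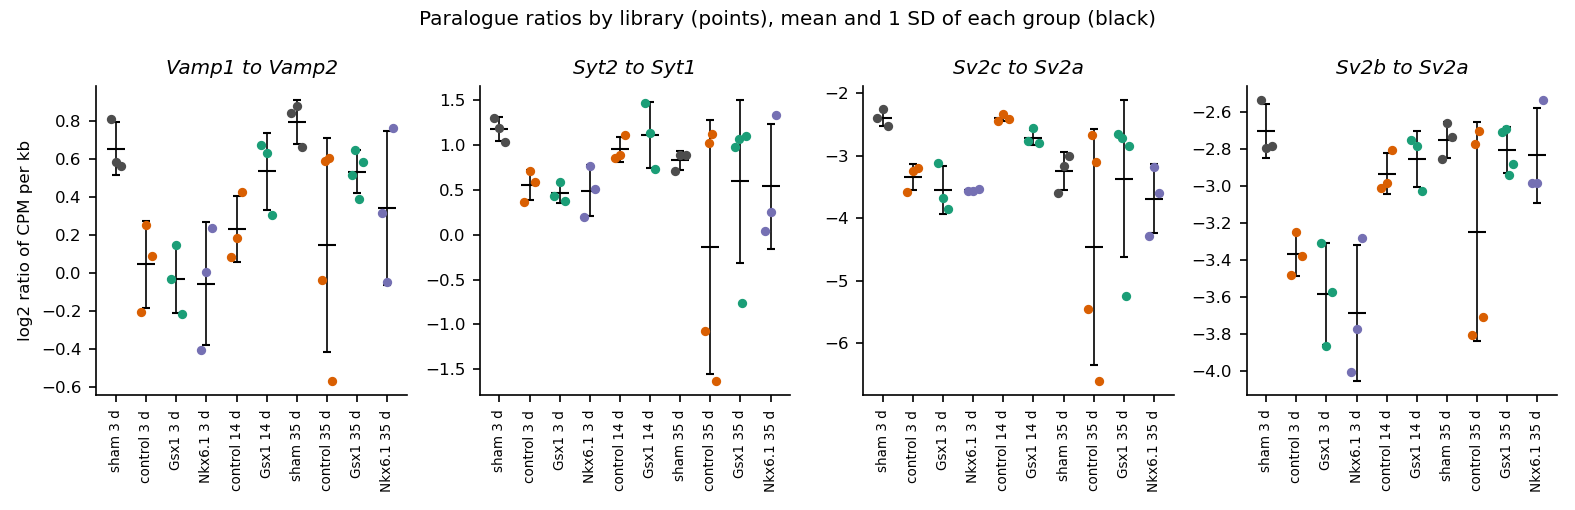
Log2 ratio of CPM per kb within each library (points), with the mean and 1 SD, for Vamp1 to Vamp2, Syt2 to Syt1, Sv2c to Sv2a and Sv2b to Sv2a in all 10 groups. The injured groups at 3 days are below sham in each panel, and at 35 days injured control replicates 1 and 4 and Gsx1 replicate 3 lie far below the rest for the ratios with Syt2 and Sv2c.

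Other genes of the release pathway moved with the members. Of 46 further presynaptic genes, 45 were tested, and 30 fell at 3 days and 27 at 35 days, with none higher (medians -0.69 and -0.62), where 16.0% and 15.5% of all genes fell. Scaled to the neuronal reference genes, 5 were higher and 1 lower at 3 days (median 0.10), and 4 higher and none lower at 35 days (median 0.02), where 63.9% and 62.2% of all genes were higher. Among those that fell were the glutamate and GABA or glycine vesicle transporters Slc17a6 (-1.12 and -0.95) and Slc32a1 (-1.19 and -0.89). The dense-core priming factor Cadps changed by -1.20 and -0.90 and endophilin A1 (Sh3gl2) by -1.21 and -0.80. Of the 15 neuronal reference genes, 11 and 10 fell (medians -0.89 and -0.67). Motor neuron markers were called lower for 3 and 2 of 6.

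Paralogues of the same families that are not limited to neurons rose in part. Of 27, 11 rose and 5 fell at 3 days, where 19.5% of all genes rose and 16.0% fell, and 12 rose and 1 fell at 35 days, where 21.3% rose and 15.5% fell. The 5 of 27 that fell are near the share of all genes. Scaled to the neuronal reference genes, 24 were higher at 3 days and 22 at 35 days and none was lower, where 63.9% and 62.2% of all genes were higher. The genes named next were picked from those with positive values. The others of the 27, with those that fell, are given by count only. Snap23, the SNAP-25 homologue of non-neuronal cells, rose by 1.04 (SE 0.18, adjusted p = 0.000101) and 0.82 (adjusted p = 0.000764). Vamp8, the synaptobrevin of secretory granules and endosomes, rose by 1.61 (adjusted p = 0.000546) and 1.89 (adjusted p = 6.583e-05), and Stx11, the syntaxin of cytotoxic and phagocytic blood cells, by 3.97 (adjusted p = 0.000105) and 3.17 (adjusted p = 0.00123). Unc13d, the Munc13 of blood cell granules, rose by 2.28 and 2.34, its partner Stxbp2 by 1.30 and 1.43, Syngr2 by 1.25 and 1.18 and Dnm2, the general dynamin, by 0.69 and 0.42. Over the same comparisons 10 of 10 macrophage and microglia markers rose (medians 3.07 and 3.71), and their part in the rise of these paralogues was not tested.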

How the data were processed

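Per the labels, total RNA of spinal cord segments was sequenced as paired-end libraries. The authors deposited 1 table of raw counts per gene for the 32 libraries, and the submitters' processing notes name HISAT2, SAMtools, HTSeq and DESeq2 with the mm10 and GRCm38 builds, without versions or roles. The strand setting is not given in the sources used here, so reads of a member and of an antisense or overlapping gene may not be told apart. Of the members, 14 share some exon length with another gene.

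Counts were analysed with edgeR 4.0.16 (R 4.3.3, limma 3.58.1): TMM scaling, filterByExpr (minimum count 10, minimum total 15), which kept 16314 genes and all 37 members, and the quasi-likelihood test in 1 model of 10 groups with 22 residual degrees of freedom, Benjamini-Hochberg adjusted over all genes and called under 0.05. The tests were checked on simulated counts. These had the same spread for every gene and no library that stood apart, so the check does not cover such libraries. DESeq2 1.42.0 was an alternative. Plots and ratios used numpy, scipy, pandas and matplotlib. Exon lengths came from the GRCm38 annotation and promoters from RefSeq. The members, gene lists and tests were chosen with earlier results of these data known. Values in every library are given for the most abundant member per length of each role, the 4 called members with the largest fall in each injury comparison, the 4 with the smallest p in other comparisons, and paralogues in a ratio. Syn1, Bsn and Rims2 are named outside this rule, chosen after their values were seen. Groups share replicate numbers, so a fit with the number as a block was run. Same-numbered libraries deviated together only in Gsx1 against sham at 3 days (correlations of 0.283, 0.217 and 0.125), by their values and not by a label, and there the block left 33 members called.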

Additional observations from a re-analysis of the deposited data

Results flagged for a closer look

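In the groups of 4 libraries at 35 days, 18 of 74 tested member and group pairs had 1 library far from the other 3 by Dixon's criterion, where chance gives about 1 in 20. Of these, 13 were in Gsx1 replicate 3, 4 in injured control replicate 4 and 1 in injured control replicate 1.

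Gsx1 replicate 3 was low for 11 members. It had 582 CPM of Nsf (836 to 865 in the others), 244 CPM of Napb (386 to 411), 68.6 CPM of Syt2 (299.8 to 319.7) and 252 CPM of Syn1 (307 to 318). It had 53.7 CPM of Syn3 (93.4 to 99.8), 19.0 CPM of Sv2c (151 to 159.8), 27.6 CPM of Rims1 (56.5 to 58.8) and 88.8 CPM of Bsn (159 to 172). Pclo was at 138 CPM (175 to 182), Amph at 113 CPM (163 to 166) and Synj1 at 214 CPM (338 to 358). The same library was high for Rab3a, at 464 CPM (364.8 to 365.3), and Sncb, at 375 CPM (286 to 299), which have short transcripts. Over the 37 members its levels relative to the group fell with exon length at a Spearman rho of -0.564.

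Injured control replicate 4 was low for Cplx1 at 454 CPM (966 to 1045), Syt7 at 109 CPM (160.4 to 167), Syn1 at 104 CPM (276 to 298) and Syngr1 at 146 CPM (275 to 286). Injured control replicate 1 was high for Vamp2, at 372 CPM (265 to 276 in the others).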

How the results depend on the processing

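Of the counts of members called, 158 of 180 kept within 1.5 times under the alternatives that left out no single library. Counts that were 0 in the main fit and stayed at 0 are among the 158. That share therefore does not measure how stable the counts above 0 were. In fits of the compared groups alone, the counts were 2 for injury at 35 days, 17 and 6 for Gsx1 and Nkx6.1 against sham at 35 days, 0 for the injured control and 5 for sham between times, and, scaled to reference genes, 9 and 0 for injury at 3 and 35 days. Without the libraries of mixed sex they were 5 for injury at 35 days, 1 for Gsx1 against sham at 35 days, 2 for the injured control between times and, scaled to reference genes, 0 at 35 days. With the length covariate, chosen after seeing the data, they were 1 for Gsx1 against control at 35 days, 1 for Nkx6.1 at 3 days, 2 for Gsx1 against sham at 35 days, 19 for Nkx6.1 by time, and 7 and 12 on the reference scale. Without the libraries related to length, also chosen after seeing the data, they were 0 for the injured control between times and 5 on the reference scale at 3 days. DESeq2 called 3 for Nkx6.1 by time, and a term for Xist gave 6 on the reference scale at 3 days. With the replicate number as a block, 33 members were called for injury at 3 days and 23 at 35 days, 35 for Nkx6.1 against sham at 3 days and 0 on the reference scale at 35 days; no other count moved by more than 1.5 times. Stx1a at 35 days turned to 0.0304 under upper-quartile scaling and ran from -0.111 to 0.0675 without single libraries.

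Leaving out 1 library at a time gave 10 to 31 members for injury at 3 days, 5 to 30 at 35 days, 0 to 9 for Gsx1 against control at 35 days, 0 to 24 for Nkx6.1 at 3 days, 17 to 33 for Gsx1 against sham at 3 days, 0 to 2 for the injured control between times, 0 to 29 for Nkx6.1 by time, 0 to 3 and 0 to 8 for injury at 3 and 35 days on the reference scale and 0 to 6 there for Gsx1 at 35 days. Ratios near no difference changed sign: Syn2 to Syn1 (-0.0669 to 0.0621), Rab3c to Rab3a (-0.105 to 0.0847) and Syngr3 to Syngr1 (-0.1099 to 0.0901) at 3 days, and Rab3c to Rab3a (-0.131 to 0.094) and Unc13c to Unc13a (-0.0948 to 0.0893) at 35 days. Other than in the fits with fewer libraries or genes, the cause of these shifts was not tested. With 3 or 4 libraries a group and 20.8% common biological variation (edgeR), small differences may be missed.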
